A study of Mus musculus with 72 samples.

Results

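Acetylation of histone H3 at lysine 27 (H3K27ac) was compared between microglia and neurons of wild-type (WT) C57BL/6 mice. Nuclei from brain had been fixed with formaldehyde and sorted, microglia as PU.1+/OLIG2-/NEUN- and neurons as PU.1-/OLIG2-/NEUN+. Each cell type had 4 WT chromatin immunoprecipitation (ChIP) libraries, 2 at 4 months and 2 at 8 months of age, which made 8 of the 72 samples of the series. The members were pairs of peaks: each of the 91770 peaks of the microglial table was joined to the nearest of the 107627 peaks of the neuronal table when the centres lay within 200 bp. This gave 28565 pairs, and left 63205 microglial and 79252 neuronal peaks without a partner. The series also held libraries of SgshKO mice, which lack the lysosomal heparan sulfate sulfamidase. Their 4 microglial and 4 neuronal libraries, at the same ages, were used here as a second set for the same comparison. Nothing in the labels says that replicates came from separate animals, so p-values measure the spread between these samples, which may be technical.

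H3K27ac is deposited at active promoters and enhancers, and enhancers carrying it differ between cell types more than promoters do. Microglia are the resident macrophages of the brain. Their identity rests on the lineage factor PU.1, encoded by Spi1, with partners such as IRF8, RUNX1 and SALL1. Neurons are post-mitotic, use factors of the NeuroD family in the forebrain, and re-acetylate promoters of activity-dependent genes such as Fos, Arc and Egr1 when they fire. Values are tags per 10M, the number of sequenced tags in the 800 bp window of a peak for every 10M tags of its library. A peak is called a promoter peak when its centre lay within 1 kb of an annotated transcription start and a distal peak otherwise.

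The promoters below show the sequence at starts that carried a peak in the microglial table only (C1qc, Inpp5d, Vav1 and P2ry12), in both tables with more acetylation in neurons (Syn1), or in the neuronal table only (Neurod2). They are the 250 bases before the start in RefSeq, build GRCm38.p6, 5′ to 3′ on the gene's strand. Capitals mark a match to 1 of 6 motifs searched on both strands: PU.1 (GAGGAAGT), MEF2 (CTAAAAATA), the neuronal bHLH E-box (CAGATGG), the cyclic AMP response element CRE (TGACGTCA), AP-1 (TGAGTCA) and IRF (AAANTGAAA). The genes were chosen after the matches were seen, P2ry12 because it is the classic microglial marker and holds none of the 6.
C1qc: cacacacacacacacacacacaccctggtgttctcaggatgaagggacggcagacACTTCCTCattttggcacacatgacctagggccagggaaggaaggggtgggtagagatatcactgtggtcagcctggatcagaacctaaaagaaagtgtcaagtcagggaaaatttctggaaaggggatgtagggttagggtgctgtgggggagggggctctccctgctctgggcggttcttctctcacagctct
Inpp5d: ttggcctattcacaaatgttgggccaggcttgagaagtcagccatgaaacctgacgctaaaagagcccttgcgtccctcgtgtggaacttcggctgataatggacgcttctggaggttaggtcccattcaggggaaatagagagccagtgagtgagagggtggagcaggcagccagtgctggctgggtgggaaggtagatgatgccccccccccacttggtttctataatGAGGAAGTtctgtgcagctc
Vav1: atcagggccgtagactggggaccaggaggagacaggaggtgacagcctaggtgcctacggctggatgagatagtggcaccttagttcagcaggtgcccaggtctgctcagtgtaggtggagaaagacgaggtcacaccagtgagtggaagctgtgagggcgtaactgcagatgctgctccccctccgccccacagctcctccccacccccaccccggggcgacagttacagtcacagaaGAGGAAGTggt
P2ry12: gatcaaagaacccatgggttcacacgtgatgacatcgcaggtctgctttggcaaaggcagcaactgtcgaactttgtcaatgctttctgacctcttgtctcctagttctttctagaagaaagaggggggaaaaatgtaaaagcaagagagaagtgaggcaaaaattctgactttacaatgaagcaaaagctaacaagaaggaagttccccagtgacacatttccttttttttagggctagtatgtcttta
Syn1: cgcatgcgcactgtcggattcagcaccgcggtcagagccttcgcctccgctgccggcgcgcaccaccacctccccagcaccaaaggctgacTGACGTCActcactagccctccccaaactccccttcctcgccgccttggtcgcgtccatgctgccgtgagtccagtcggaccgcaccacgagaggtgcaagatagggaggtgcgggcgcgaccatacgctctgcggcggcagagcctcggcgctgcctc
Neurod2: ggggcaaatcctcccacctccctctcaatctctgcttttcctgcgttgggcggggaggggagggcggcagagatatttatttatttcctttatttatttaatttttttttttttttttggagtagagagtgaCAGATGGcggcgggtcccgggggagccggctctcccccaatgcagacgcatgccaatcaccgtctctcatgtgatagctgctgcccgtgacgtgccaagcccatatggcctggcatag

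C1qc (chr4:136892915-136893164, minus strand) encodes a chain of complement C1q, Inpp5d (chr1:87620062-87620311, plus strand) the lipid phosphatase SHIP1, and Vav1 (chr17:57278850-57279099, plus strand) a guanine nucleotide exchange factor of blood cells. The PU.1 letters began 195 bases before the start of C1qc, 20 before that of Inpp5d and 11 before that of Vav1. The higher of 2 microglial peaks that overlapped the C1qc window held 571 ± 57.9 tags per 10M (SD, n = 4). This peak, at chr4:136892246-136893046, overlapped the window but did not reach the PU.1 letters. The value of the other C1qc peak is not reported here. The microglial peak over Inpp5d held 373 ± 42.6 and that over Vav1 289 ± 24.7 (SD, n = 4). No peak of the neuronal table overlapped these windows. Of the P2ry12 window (chr3:59262986-59263235, minus strand) the microglial peak held 396 ± 34.1 tags per 10M (SD, n = 4), so strong acetylation also stood at a start without the letters.

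Syn1 (chrX:20920919-20921168, minus strand), which encodes the vesicle protein synapsin I, held CRE letters 159 bases before its start. Its peak was present in both tables, at 0.498 ± 0.647 tags per 10M in microglia and 96.2 ± 15.4 in neurons (SD, n = 4 each). Neurod2 (chr11:98329646-98329895, minus strand), a bHLH factor of excitatory neurons, held the E-box letters 118 bases before its start. It had 200 ± 49.0 tags per 10M in neurons (SD, n = 4) and no microglial peak within 1 kb.

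Across genes, the PU.1 letters were present in 82 of the 1469 matched promoters with a peak in the microglial table only, or 5.58%. They were present in 26 of 1585 promoters with a peak in the neuronal table only, or 1.64%, and in 2.44% of all 27025 promoters in the reference table. For the IRF letters the shares were 3.68% with a microglial peak only, 1.64% with a neuronal peak only and 2.30% of all promoters. The E-box letters did not follow this order, with 4.15% for microglial peaks only, 4.67% for neuronal peaks only and 4.48% of all. The AP-1 letters were in 4.63%, 3.41% and 4.43% of these promoters, the CRE letters in 2.04%, 1.83% and 1.62%, and the MEF2 letters in 0.340%, 0.379% and 0.451%. CRE letters were most frequent where both tables had a promoter peak, in 2.97% of 8631 promoters. At paired promoters at least 4-fold higher in microglia, PU.1 letters were in 2.86% and IRF letters in 2.15%, near the shares of all promoters. At those at least 4-fold lower the shares were 0.959% and 1.12%, and at promoters with no peak 2.54% and 2.81%. These shares are descriptions of letters in 250 bases and were not tested.

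The microglial WT libraries held 12000879 to 15778229 tags, and 41.2% to 51.3% of them lay in the microglial peaks. The neuronal WT libraries differed in depth by age, with 7970059 and 6059671 tags at 4 months and 30160783.5 and 32523649.5 at 8 months, and 37.9% to 39.8% of tags in the neuronal peaks. Replicates of a group differed by more than counting noise. The sorted populations carried their own markers: 19 of 21 microglial core genes had a promoter peak in the microglial table, summing to 8521 to 10587 tags per 10M, against 2 of 21 and 45.2 to 75.9 in the neuronal table. All 19 pan-neuronal genes had one in the neuronal table, summing to 6850 to 7178, against 8 of 19 and 66.1 to 91.1 in the microglial table. Markers of other cell types were present at lower sums. The 10 astrocyte markers summed to 917 to 1002 in neurons, led by Slc1a2 at 214, with Gfap, Aqp4 and Gja1 absent, and to 133 to 157 in microglia. The 11 endothelial and mural markers summed to 172 to 214 in microglia, led by Pecam1 at 83.5, and to at most 4.95 in neurons. The 15 oligodendrocyte markers summed to 469 to 660 in microglia, led by Cnp at 206, and to 144 to 175 in neurons, led by Mbp. Sox10, Mag, Mobp and Opalin had no promoter peak in either table, and Olig2 stood at 2.46 in microglia, where Mog stood at 85.1. Among 12 markers of other leukocytes, Mrc1 of border macrophages stood at 39.7 in microglia, Cd3e and Ccr2 had no promoter peak, and neurons had none for any of them. The part of such cells in the results was not tested. Since these are bulk libraries, fewer cells with the mark and less of the mark per cell cannot be told apart, and cell type, sort gate and peak table cannot be told apart either.

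Most sites were not shared. Of the microglial peaks, 68.9% had no neuronal partner within 200 bp, and of the neuronal peaks 73.6% had no microglial one. The division followed position. Distal peaks were unpaired in 80.5% of cases in microglia and 84.3% in neurons, and promoter peaks in 35.8% and 35.2%. Pairs were close, with a median of 37 bp between centres, and 98.9% of them had the same nearest gene in both tables. Requiring that no window of the other table overlap was added after the counts were seen, and still left 51699 microglial and 68861 neuronal peaks alone. At the edge of the rule, 1604 microglial peaks had a partner at 150 to 200 bp and 1333 at 200 to 250 bp. Their median acetylation in microglia was 22.1 and 22.3 tags per 10M, and that of the nearest neuronal peaks 31.1 and 29.2.

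Acetylation at shared and unshared sites differed by position. Distal microglial peaks with a partner had a median of 6.60 tags per 10M, close to their input median of 4.17, whereas distal microglial peaks without a partner had 15.4. In neurons the distal medians were 11.1 with a partner and 15.4 without. At promoters the order was the other way in microglia, 33.5 with a partner and 23.7 without, and near level in neurons, 45.1 and 42.3. Paired peaks held 12.8% ± 1.10 of microglial tags and 13.1% ± 0.227 of neuronal tags (SD, n = 4 libraries each), and a two-sided exact permutation test over the 8 libraries gave p = 0.657, so the difference did not pass. The sign of this difference changed when the WT 8-month microglial library of replicate 2 was left out.

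The genes that define microglia lay largely outside the pairs. Acetylation at an unpaired peak was measured only in the cell type that had the peak, so its level in the other is unknown. Of 21 microglial core genes, 17 had a promoter peak in the microglial table only, 2 in both tables, none in the neuronal table only, and 2 in neither. Of 17 innate immune receptors, 16 had one in the microglial table only, and Cd68 alone had one in both. The myeloid signalling genes gave 8 of 11 and 3 of 11, and the myeloid transcription factors 5 of 14 and 9 of 14. For comparison, of all 20316 genes with a peak, 2067 had a promoter peak in the microglial table only, 2334 in the neuronal table only and 11061 in both.

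**Figure D1:**
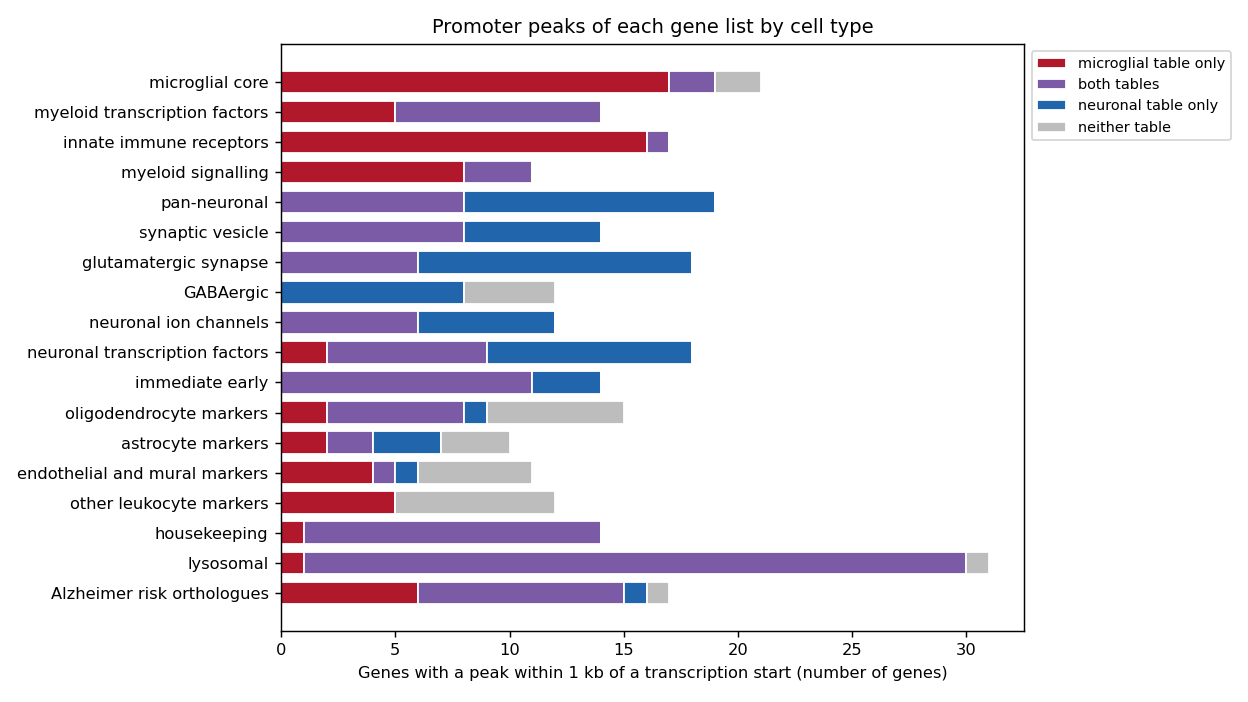
Number of genes in each of 18 lists with a peak within 1 kb of a transcription start in the microglial table only (red), in both tables (purple), in the neuronal table only (blue) or in neither (grey). The innate immune receptors have 16 of 17 genes in red, the GABAergic list 8 of 12 in blue, and the housekeeping list 13 of 14 in purple.

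P2ry12, the purinergic receptor that senses ATP from injured cells, had its promoter peak at chr3:59262578-59263378. In the deposited values it held 445 and 387 tags per 10M at 4 months and 366 and 386 at 8 months, against a mean of 5.03 in the microglial inputs. The 4 libraries were thus close to each other and far above input. Cx3cr1, the receptor for neuronal fractalkine, held 341, 379, 337 and 312 tags per 10M at chr9:120067859-120068659, in the same order of libraries, and had 28 microglial and 0 neuronal peaks. Trem2, a lipid receptor, held 312, 426, 281 and 318 at chr17:48346038-48346838, with the 4-month library of replicate 2 the highest. Tmem119, a membrane protein used to tell microglia from other macrophages, was lower than these, at 107 ± 7.35 (SD, n = 4) at the peak nearest its start, with 19 microglial peaks and 0 neuronal ones. Csf1r, the receptor on which microglial survival depends, held 351 ± 28.2, and C1qa 303 ± 43.5 (SD, n = 4 each).

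The lineage factors followed the same division. Spi1, which encodes PU.1 itself, held 421 ± 45.0 tags per 10M at chr2:91096374-91097174 (SD, n = 4), and Sall1, a zinc finger repressor that among macrophages is typical of microglia, held 412 ± 49.4 at chr8:89043822-89044622. No neuronal promoter peak was listed for either. Runx1 had a lower promoter value, 132 ± 23.1 at chr16:92825581-92826381, but the most unpaired microglial peaks of the genes ranked below. Apoe, the lipid carrier that microglia raise in disease, had a weak promoter peak in the microglial table only, with 24.2, 35.4, 41.8 and 16.3 tags per 10M in the 4 libraries. All 4 were below every library of the other 9 fixed promoters with an unpaired microglial peak.

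Neuronal genes gave the mirror image. Of 19 pan-neuronal genes, 11 had a promoter peak in the neuronal table only and 8 in both. The glutamatergic list gave 12 of 18 and 6 of 18, the synaptic vesicle list 6 of 14 and 8 of 14, and the ion channels 6 of 12 and 6 of 12. All 8 GABAergic genes with a promoter peak had it in the neuronal table only. Snap25, a SNARE protein of vesicle fusion, held 215, 163, 264 and 211 tags per 10M at chr2:136712956-136713756 in the neuronal libraries, 4-month replicates first. Syt1, the calcium sensor of release, held 168, 173, 166 and 148 at chr10:109010623-109011423. Both stood well above their inputs in every library, whose highest values were 4.91 and 3.09. Gad1, which makes GABA and is used by a minority of cortical neurons, held 39.4 ± 7.75 at chr2:70561646-70562446 (SD, n = 4). Among neuronal promoters of the fixed genes with no partner, Gad1 was the lowest in each of the 4 libraries. Rbfox3, whose product is the NeuN antigen of the sort, held 190 ± 18.2 at chr11:118909297-118910097.

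Counted by gene, 13708 genes had at least 1 unpaired microglial peak and 15416 at least 1 unpaired neuronal peak, with a median of 3 each among these genes. A further division was by presence: 1587 genes had peaks in the microglial table only, 3195 in the neuronal table only and 15534 in both. Genes were ranked by unpaired peaks with predicted, RIKEN, microRNA and small nucleolar genes left out. The 8 genes with the most unpaired microglial peaks were Runx1 with 92 of 93, Sipa1l2 with 87 of 101, Elmo1 with 86 of 94, Frmd4a with 76 of 83, Pag1 with 76 of 80, Ski with 72 of 85, Zfhx3 with 71 of 73 and Rreb1 with 70 of 73. Elmo1 takes part in engulfment of dead cells, Pag1 is an adaptor of Src family kinases, and Ski restrains TGF-beta signalling. Their unpaired peaks were moderately acetylated, with medians from 20.3 tags per 10M at Pag1 to 66.9 at Zfhx3. The 8 with the most unpaired neuronal peaks were Rbfox3 with 146 of 153, Celf4 with 138 of 145, Phactr1 with 115 of 118, Lingo1 with 94 of 102, Ank3 with 93 of 93, Umps with 93 of 104, Anks1b with 92 of 93 and Dclk1 with 91 of 93. Ank3 encodes the scaffold of the axon initial segment and Celf4 a neuronal RNA-binding protein. Their medians ran from 17.4 at Umps to 42.0 at Rbfox3. Umps, an enzyme of pyrimidine synthesis, also had 52 unpaired microglial peaks of 63. Peaks were assigned to the nearest start, and the counts were not adjusted for gene length.

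**Figure D2:**
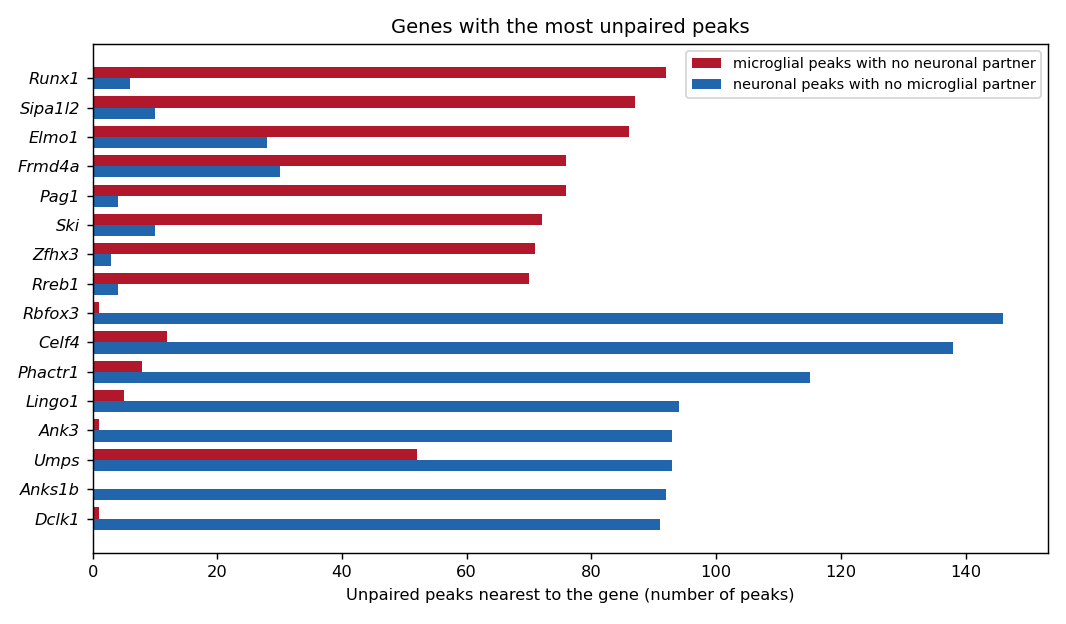
Number of unpaired peaks nearest to each of 16 genes, red for microglial peaks without a neuronal partner and blue for neuronal peaks without a microglial partner. Runx1 has 92 red and 6 blue, Rbfox3 1 red and 146 blue, and Umps has 52 and 93.

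At sites open in both cell types the level of H3K27ac still differed at most pairs. Of 28565 pairs, 24767 had enough tags to test, and limma called 17725 of them, or 71.6%, at an adjusted p below 0.05. Of these, 8187 were higher in microglia (33.1% of the tested) and 9538 lower (38.5%). The median absolute difference of called pairs was 1.97 on the log2 scale. At least 4-fold differences numbered 3442 higher (13.9%) and 5298 lower (21.4%). At 15865 tested pairs, or 64.1%, the 4 microglial and the 4 neuronal libraries did not overlap. By position, 48.5% of the 10049 tested distal pairs were called with at least 4-fold differences, and 26.3% of the 14718 tested promoter pairs. The difference between these shares was not tested. The median difference of all tested pairs was -0.13 with TMM scaling and -0.27 with scaling to the library total. Differences of this size or smaller depend on the scaling, and differences below are given with TMM.

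**Figure D3:**
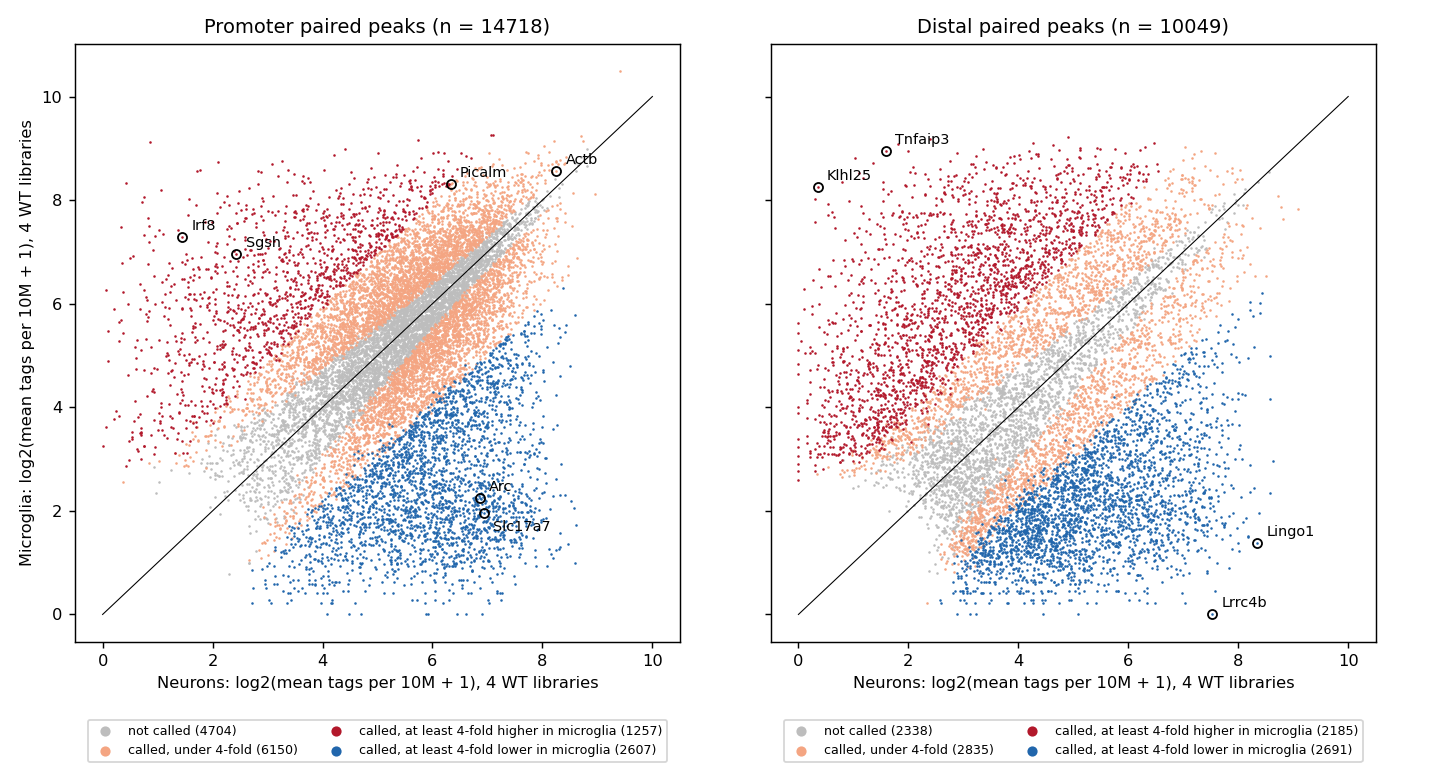
Mean TMM-scaled H3K27ac of the 4 WT microglial libraries (vertical) against the 4 WT neuronal libraries (horizontal) at each tested pair, both as log2(tags per 10M + 1), for 14718 promoter and 10049 distal pairs. Red and blue are called pairs at least 4-fold higher or lower in microglia, orange other called pairs, grey pairs not called, the line marks equality, and circles mark named peaks: 2185 distal pairs are red and 2691 blue.

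Among myeloid transcription factors, 37 of 46 tested pairs were higher in microglia and 6 lower, with a median log2 difference of 2.22. Irf8, partner of PU.1, had its peak at chr8:120736031-120736831 over the start. It held 139, 166, 157 and 160 TMM-scaled tags per 10M in microglia and 0, 1.52, 4.79 and 0.601 in neurons, 4-month libraries first. The groups were far apart in every library, and the log2 difference was 6.15 with SE 0.44 (limma, adjusted p = 3.37e-08). Among the other members, Maf, a bZIP factor of macrophages, held 294 ± 53.4 in microglia and 25.7 ± 5.06 in neurons, and Cebpa, a factor of myeloid development, 216 ± 11.5 and 44.1 ± 19.9 (SD, n = 4 each). Both were called, with log2 differences of 3.47 and 2.36.

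The MEF2 genes, used in both lineages, differed less. Mef2c held 156, 188, 174 and 169 in microglia and 98.4, 99.0, 108 and 140 in neurons at a peak over its first exon, in the 5′ UTR. All 4 microglial libraries were above all 4 neuronal ones, by 0.63 on the log2 scale (limma, adjusted p = 0.000781). Mef2a differed by 1.23 (SE 0.10) at its promoter, with means of 483 and 206 tags per 10M, and Bhlhe41, another factor of the myeloid list, by 0.76 (SE 0.14).

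The microglial core list had 25 tested pairs, mostly distal. Of these 23 were higher and 0 lower, beside 33.1% and 38.5% of all tested pairs, and the median of the list was 3.67. Among its paired promoters, that of Olfml3, which encodes a secreted olfactomedin-like protein, held 223 ± 26.3 tags per 10M in microglia against 13.7 ± 3.57 (SD, n = 4 each). Innate immune receptors had 13 of 16 higher and 2 lower, with Cd68, a lysosomal glycoprotein of phagocytes, 2.89 higher at its promoter. Myeloid signalling genes had 10 of 11 higher and 0 lower. Syk, the kinase downstream of TREM2, was 3.71 higher. Coro1a, an actin regulator, held 171 ± 17.4 in microglia and 178 ± 36.8 in neurons at the promoter pair nearest its start. This pair was not called (limma, adjusted p = 0.803). Of its 4 tested pairs, 3 were called higher in microglia and 0 lower.

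The neuronal lists were lower in microglia at most pairs. Of all tested pairs, 38.5% were lower in microglia and 33.1% higher. Of pan-neuronal pairs 28 of 31 were lower and 1 higher, with a median of -2.84. Synaptic vesicle genes had 25 of 33 lower and 4 higher, glutamatergic genes 14 of 18 and 2, ion channels 17 of 20 and 2, neuronal transcription factors 23 of 29 and 4, and GABAergic genes 2 of 2 and 0. At promoters alone no pair of these lists was called higher in microglia. Eno2, the neuronal enolase, held 1.73 ± 1.34 in microglia and 192 ± 23.04 in neurons, a log2 difference of -6.31. Nrgn, a calmodulin-binding protein of dendritic spines, differed by -6.42, the potassium channel gene Kcnc1 by -6.84 and Bsn, a scaffold of the presynaptic active zone, by -5.53. Tbr1, a factor of deep-layer cortical neurons, differed by -5.54. Slc17a7, the vesicular glutamate transporter of cortical excitatory neurons, held 1.70, 4.56, 2.01 and 3.34 in microglia and 114, 122, 118 and 134 in neurons at chr7:45163522-45164322. The 2 sets were widely separated, with a difference of -5.04 and SE 0.33 (limma, adjusted p = 1.57e-08).

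Not all synaptic promoters were silent in microglia. Vamp2, a vesicle SNARE, held 132 ± 29.6 in microglia and 259 ± 12.3 in neurons (SD, n = 4 each), a difference of -0.99. Homer1, a postsynaptic scaffold, held 91.7 ± 18.0 and 259 ± 29.8. Dlg4, which encodes PSD-95, held 36.6, 63.2, 41.6 and 45.9 in microglia and 123, 143, 167 and 171 in neurons, without overlap (limma, log2 difference -1.69, adjusted p = 1.93e-06). Camk2a, the kinase of synaptic plasticity, had 7 neuronal promoter peaks, the highest at 224 tags per 10M, and 2 microglial ones, the higher at 16.9. Its paired window was a weak one, with 15.1 ± 4.62 in microglia and 13.9 ± 3.11 in neurons, and the libraries overlapped there (limma, adjusted p = 0.815). The sign of this difference changed with scaling to the library total.

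Most pairs of immediate early genes carried more of the mark in neurons, with 54 of 83 lower in microglia (65.1%) and 15 higher (18.1%). Of all tested pairs, 38.5% were lower and 33.1% higher. The median of the list was -2.05. Egr3, a zinc finger factor, differed by -6.40 and Fosb by -4.79. Egr1 held 2.55, 5.86, 3.36 and 6.68 in microglia and 171, 186, 220 and 210 in neurons, at a peak over its first exon, a log2 difference of -5.20 (limma, adjusted p = 4.19e-09). Arc, which encodes a synaptic capsid-like protein, held 5.10, 2.60, 4.03 and 3.34 in microglia and 123, 92.9, 121 and 125 in neurons. At these windows the microglial values were near the input means of 4.57 and 2.67, while another Egr1 promoter peak of the microglial table reached 35.4. Fos differed less: 18.7, 23.4, 30.2 and 10.9 in microglia and 55.7, 32.0, 38.7 and 158 in neurons, without overlap. The neuronal value rested in part on the WT 8-month library of replicate 2, which held the 158, and the difference of -1.51 (limma, adjusted p = 0.00522) became -0.91 (adjusted p = 0.0652) without it. Junb held 184 ± 22.5 and 200.9 ± 45.3 (SD, n = 4 each) at the promoter pair nearest its start, which was not called (limma, adjusted p = 0.455). Of its 12 tested pairs, 5 were called higher in microglia and 2 lower. The promoter pairs of Egr2 and Ier2 were higher in microglia, by 1.16 and 1.32.

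**Figure D4:**
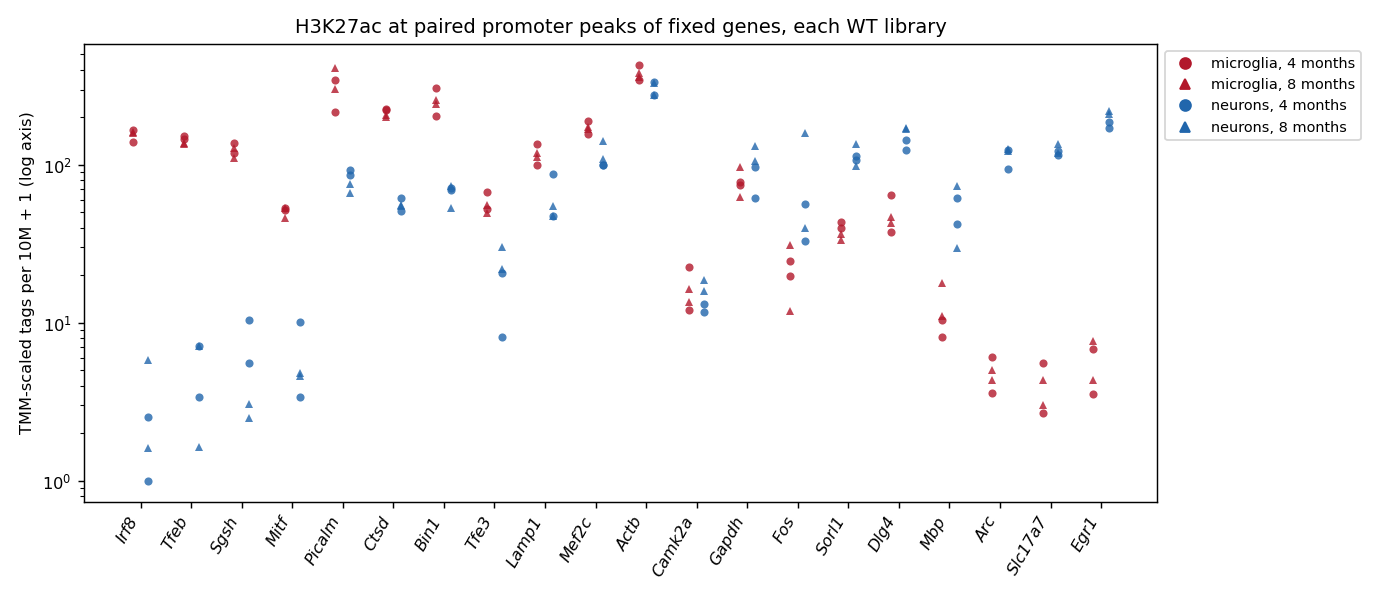
TMM-scaled tags per 10M plus 1, on a log axis, at the paired promoter peaks of 20 fixed genes, ordered by log2 difference, in each WT library (red microglia, blue neurons, circles 4 months, triangles 8 months). Irf8 holds 139 to 166 in microglia against at most 4.79 in neurons, the weak Camk2a window and Gapdh overlap, and 1 neuronal library of Fos stands at 158.

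Lysosomal genes, the pathway hit by loss of Sgsh, had almost the same promoters open in both cell types, with 29 of 31 genes having a promoter peak in both tables. The level was nonetheless higher in microglia at 37 of 59 tested pairs and lower at 6, with a median of 1.31, against 33.1% and 38.5% of all pairs. Sgsh itself held 118, 137, 126 and 110 in microglia and 9.48, 4.57, 2.08 and 1.503 in neurons at chr11:119355102-119355902 over its start, a log2 difference of 4.74 with SE 0.31 (limma, adjusted p = 1.33e-08). All 4 neuronal libraries were low. Ctsz, a cathepsin, was the most different promoter of the list, at 382 ± 21.3 against 2.43 ± 2.45 (SD, n = 4 each). Gusb, the beta-glucuronidase, held 165 ± 29.02 against 13.4 ± 4.53. Naglu, which like Sgsh acts on heparan sulfate, held 122 ± 7.88 against 26.8 ± 2.65 (SD, n = 4 each), a log2 difference of 2.15.

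Ctsd, the aspartic protease of the lysosome, held 226, 222, 199 and 205 in microglia and 49.8, 60.9, 55.0 and 54.1 in neurons, and Lamp1, a membrane glycoprotein, 116 ± 15.3 against 58.4 ± 19.3 (SD, n = 4 each). Tested promoter pairs called lower in microglia were those of Ppt1, Atp6v1h and Tpp1, with 23.03 ± 8.62 against 88.6 ± 6.78, 26.96 ± 6.80 against 73.3 ± 9.94 and 33.8 ± 15.0 against 63.2 ± 7.15 (SD, n = 4 each). Gla had promoter peaks in both tables but no pair, so it was not tested. Its highest promoter peak held 3.08 tags per 10M in microglia and 64.5 in neurons in the deposited values. Ppt1 and Tpp1 encode lysosomal hydrolases and Atp6v1h a subunit of the proton pump. Psap, the saposin precursor, held 187 ± 21.8 and 217 ± 60.2 at the promoter pair nearest its start, which was not called. Of its 8 tested pairs, 5 were called higher in microglia and 0 lower. Promoters of the factors that drive lysosomal genes carried more of the mark in microglia too. Tfeb held 145, 152, 136 and 134 against 2.37, 6.09, 0.639 and 6.16, a difference of 5.12 (limma, adjusted p = 1.31e-07). Mitf held 50.1 ± 3.42 against 4.74 ± 3.00, a difference of 3.28, and Tfe3 55.4 ± 7.80 against 19.3 ± 9.13, a difference of 1.62 (SD, n = 4 each). Tfe3 was called at 4 months, at 2.20, but not at 8 months, at 1.03 (limma, adjusted p = 0.000715 and 0.0578). Its difference between ages did not pass (limma, adjusted p = 0.708). Of the 3, Tfe3 was the only one with a neuronal mean above 10 tags per 10M.

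Mouse orthologues of Alzheimer risk genes were divided. Of 17 genes, 6 had a promoter peak in the microglial table only (Apoe, Cd33, Inpp5d, Plcg2, Epha1 and Cass4), 1 in the neuronal table only (Clu) and 9 in both. At pairs, 12 of 41 were higher in microglia (29.3%) and 20 lower (48.8%), beside 33.1% and 38.5% of all tested pairs. Picalm, a clathrin assembly protein, held 215, 343, 407 and 300 in microglia and 92.4, 85.3, 74.9 and 64.9 in neurons, and Bin1, a membrane-bending protein, held 251 ± 42.2 and 65.9 ± 9.22 (SD, n = 4 each). They were higher in microglia by 1.95 and 1.91 on the log2 scale. Sorl1, the sorting receptor of the amyloid precursor, was lower in microglia, 37.4 ± 4.30 against 113 ± 16.2, a difference of -1.56 (limma, adjusted p = 3.05e-06). App fell by 2.01 on the log2 scale and Mapt by 2.60 from neurons to microglia.

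Housekeeping genes gave 25 of 58 pairs higher (43.1%) and 19 lower (32.8%), a median of 0.19, beside 33.1% and 38.5% of all tested pairs. Actb held 429, 343, 357 and 378 in microglia and 334, 277, 275 and 330 in neurons. The difference of 0.31 (limma, adjusted p = 0.019) was not called with scaling to the library total, where it was 0.17, nor without the WT 4-month microglial library of replicate 1 (0.23) or the WT 8-month neuronal library of replicate 1 (0.24). Gapdh held 76.8 ± 13.9 and 98.2 ± 28.9 at the promoter pair nearest its start, which was not called (limma, adjusted p = 0.159). Among markers of other cells, the astrocyte glutamate transporter Slc1a2 carried 203 ± 18.3 in neurons and 2.48 ± 2.41 in microglia, and Slc1a3 had a promoter peak in the microglial table only. Mbp, of myelin, held 10.8 ± 4.15 in microglia and 50.6 ± 19.5 in neurons, and Cnp 215 ± 28.2 and 38.7 ± 2.91 (SD, n = 4 each).

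**Figure D5:**
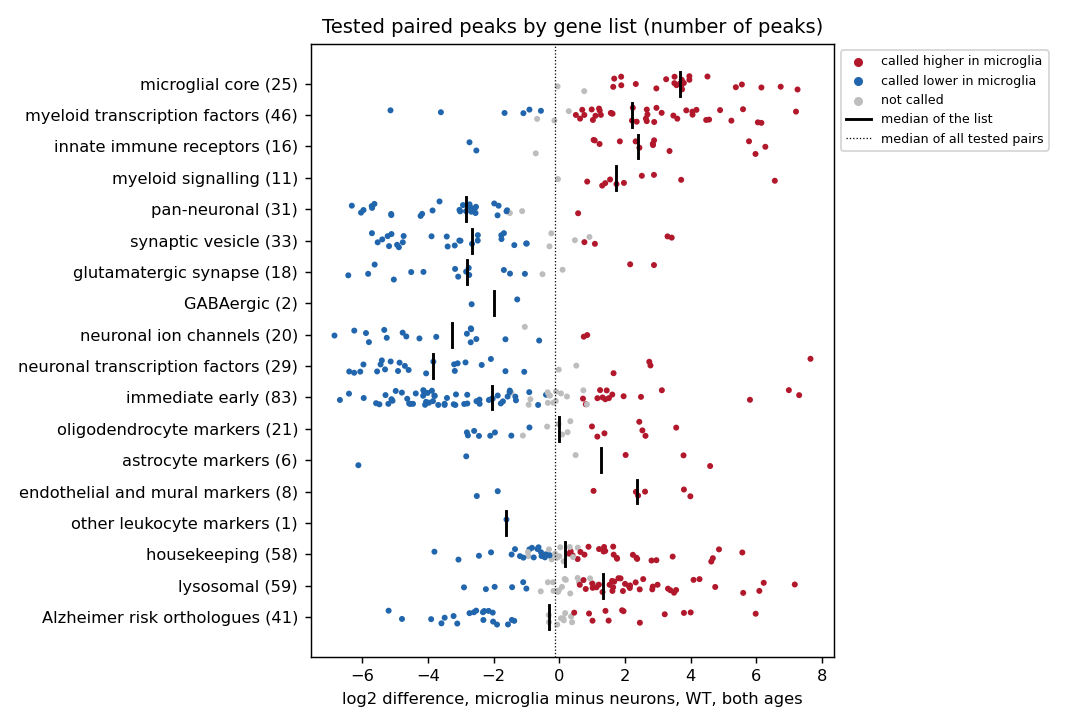
Log2 difference, microglia minus neurons, of each tested pair nearest to a gene of 18 lists, with the number of pairs in brackets, red called higher, blue called lower, grey not called, black bars list medians and the dotted line the median of all tested pairs. The microglial core median is 3.67, the lysosomal median 1.31, the housekeeping median 0.19 and the neuronal transcription factor median -3.83.

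The largest promoter differences in favour of microglia, among called pairs whose libraries did not overlap, were at Arhgap27os3, Clcf1, Fermt3, Tgfb1, Lrp5 and Ikzf1. Arhgap27os3 is an antisense transcript, and its window also met the annotated promoter of Arhgap27; reads of the 2 cannot be told apart. That window held 505, 580, 570 and 565 in microglia and 2.37, 0, 0 and 0.902 in neurons. Fermt3, the integrin activator kindlin-3 of blood cells, held 264 ± 14.7 against 0.693 ± 0.83, and Tgfb1, the cytokine on which microglial identity depends, at a window that also met the end of B9d2, 294 ± 7.98 against 1.10 ± 1.45 (SD, n = 4 each). Ikzf1, the lymphoid and myeloid factor Ikaros, held 220, 190, 144 and 157 in microglia and 0 in all neuronal libraries but 1. The fitted log2 differences of the 6 ran from 7.20 to 8.45 and, with neuronal windows this near 0 tags, depend on the added 1 tag per 10M.

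In favour of neurons they were at Speg, Synpo, Mettl24, C1qtnf4, Ddn and Pknox2, with differences of -7.34 to -7.18. Synpo and Ddn encode actin-associated proteins of dendrites. Ddn held 0, 1.30, 5.37 and 2.51 in microglia and 401, 323, 469 and 373 in neurons, and Synpo 1.47 ± 1.73 and 318 ± 54.3 (SD, n = 4 each). The 6 promoters had at most 13 tags in all over the 4 microglial libraries, so these differences too depend on the added 1 tag per 10M.

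At distal pairs the 6 peaks most in favour of microglia were nearest to Klhl25, Mrln, Aurkb, Cdh26, Dlx2 and Tnfaip3. The Tnfaip3 peak, at -46709 bp from the start of this gene for the NF-kappaB inhibitor A20, was intergenic at chr10:19061719-19062519 and held 466, 501, 523 and 472 in microglia and 2.37, 1.52, 0 and 4.21 in neurons. The nearest gene is a label of position only: the peak assigned to Aurkb lay in intron 15 of Ctc1, and that assigned to Dlx2, a factor of interneurons, lay at -34422 bp from its start. Of the 5 tested pairs nearest to Dlx2, all distal, 3 were higher in microglia and 1 lower.

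The 6 distal peaks most in favour of neurons were nearest to Lrrc4b, Plk2, Lingo1, Meltf, Zbtb43 and Gpd1l. The Lrrc4b peak, intergenic at chr7:44428770-44429570 and at -13317 bp from the start of this gene for a synaptic adhesion protein, had no tag in any microglial library and held 183, 192, 179 and 182 in neurons. Against a floor of 3 tags over the 4 microglial libraries its tags were at least 331-fold higher in neurons. The WT microglial inputs were empty at this window too, with a mean of 0, against a median of 4.30 across windows. The neuronal inputs had a mean of 3.99 at their window, whose centre lay 196 bp away. An empty input leaves no background to compare with, so this fold is not shown to be one of acetylation. Lingo1, an inhibitor of myelination expressed by neurons, had a peak in its intron 3 with 1.70, 0, 1.34 and 3.34 against 266, 323, 365 and 346.

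Each age was also tested on its own. At 4 months 15065 pairs were called (60.8%) and at 8 months 14550 (58.7%). Of 12402 pairs called at both ages, 12399 had the same direction. No pair (0.0%) passed the test of the difference between ages with limma, edgeR or DESeq2. Their counts at an unadjusted p below 0.05 were 1774, 2071 and 1386. This count rests on single libraries: 14 pairs were called without the WT 4-month microglial library of replicate 2, 2 without the 4-month neuronal library of replicate 1, and 1 without that of replicate 2. Neuronal depth differs by age and cannot be told apart from age here. For Sgsh the difference was 4.07 at 4 months and 5.42 at 8 months (limma, adjusted p of the difference between ages = 0.694), and for Irf8 it was 6.59 and 5.71 (adjusted p = 0.85).

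The SgshKO libraries, which share no sample with the WT ones, gave 17046 of 24767 pairs called (68.8%), of which 8357 were higher in microglia (33.7%) and 8689 lower (35.1%). Higher pairs were thus 49.0% of the called. With scaling to the library total that share was 34.9%. Of the 17725 pairs called in WT, 15104, or 85.2%, were called in the same direction in SgshKO and 75 in the opposite one. Of the 8740 WT pairs with at least 4-fold differences (35.3% of those tested), 8346, or 95.5%, were called the same way and 11 the opposite way. The Sgsh promoter window differed by 5.04 between the SgshKO libraries and by 4.74 between the WT ones, so it is no check of the genotype. Irf8 differed by 6.54 in SgshKO, Tfeb by 4.96 and Slc17a7 by -5.76. List medians in SgshKO were 3.39 for the microglial core, 1.46 for lysosomal genes and -2.88 for pan-neuronal genes. The weak paired window of Camk2a, not called in WT, was 1.35 higher in SgshKO microglia than in SgshKO neurons (limma, adjusted p = 0.0123); the difference between genotypes was not tested.

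The inputs gave the background at these windows. Over the same windows the 4 WT microglial inputs had a median of 4.30 tags per 10M and the 2 neuronal inputs, which mixed genotypes, 2.13, against 25.8 and 35.2 in the ChIP libraries. At 18288 windows with enough input tags, 1 (0.00547%) was called between cell types (limma), and 432 had an unadjusted p below 0.05. The median input difference was -0.30 with TMM scaling and 0.62 with library totals, so its direction depends on the scaling. The comparison had 4 inputs against 2 at these low levels, and what size of input difference it could call was not measured.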

How the data were processed

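H3K27ac ChIP-seq was analysed from 2 deposited tables, one of microglia and one of neurons. The authors deposited signal: tags per 10M tags of each library in 800 bp windows at open-chromatin peaks, per the file headers. The submitters' processing notes name Bowtie2, HOMER, DESeq2 and build mm10, without versions. Low values of the ChIP columns were 100% whole multiples of 1 tag (0.5 tags in the 8-month neuronal libraries), within rounding plus 0.02 of a step, so tags were recovered. Headers of the microglial inputs repeat the ChIP totals, so input totals were taken from the size of 1 tag. Since values are scaled to each library's own total, both tables were joined by pair.

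Pairs were filtered with filterByExpr of edgeR 4.0.16, scaled by TMM and moved to a log2 scale after adding 1; these values went into limma 3.58.1 (mean trend) over 4 groups of cell type and age, two-sided, with Benjamini-Hochberg adjustment over all 24767 pairs. The count test of edgeR on the recovered tags called 17662 pairs, and DESeq2 1.42.0 called 16787. Values of unpaired peaks are the deposited ones, without a test. In simulated tags with a fixed dispersion of 0.05, only 200 of 24767 pairs were changed, each 4-fold. Of these 100% were called, and 1.48% of calls were wrong. In the data 71.6% of pairs were called, so 1.48% is not the error rate of those calls. Genes were those nearest by the deposited annotation. Promoters came from RefSeq GRCm38.p6, where 24 of 38 fixed genes matched.

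Named peaks were those of 38 fixed genes, then the 6 largest differences in each direction at promoters and at distal sites, among pairs called with at least 4-fold differences and libraries that did not overlap, 1 per gene, without predicted, RIKEN, microRNA and small nucleolar genes. Then came the 8 genes per cell type with the most unpaired peaks, with the same gene classes left out, and, for each list, members with the largest promoter differences. Other members of lists named beside these were chosen after their values were seen. Some members of the lists are counted but not reported here by name. The members, lists and tests were chosen with earlier results of these data known. Alternatives were other scalings, tools, pseudocounts, filters, pairing distances, a replicate block and leaving out each library.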

Additional observations from a re-analysis of the deposited data

Results flagged for a closer look

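Each of the 45 named and tested pairs was checked for a library standing apart from the other 3 of its cell type, at the 95% critical value of Dixon's ratio. Of 90 sets of 4 libraries 7 met it, where chance gives about 1 in 20. At the promoter of Arc, the neuronal 4-month library of replicate 2 held 92.9 TMM-scaled tags per 10M and the other 3 held 121 to 125. At the Ikzf1 promoter the neuronal 8-month library of replicate 2 held 1.05 and the others 0, and at the distal Mrln peak it held 0.902 and the others 0, which is a few tags. At Mrln the microglial 8-month library of replicate 2 held 281 and the others 249 to 255. At the distal Dlx2 peak the microglial 4-month library of replicate 2 held 379 and the others 298 to 312. At the distal Zbtb43 peak the neuronal 4-month library of replicate 1 held 326 and the others 273 to 281, and at the distal Gpd1l peak the neuronal 8-month library of replicate 2 held 200.4 and the others 235 to 236. In each case the 2 cell types did not overlap. For all of these pairs but Arc that was a condition of being picked, so it is no check of them. No named pair passed the test of a difference between ages.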

How the results depend on the processing

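Over 45 named pairs, 870 of 876 differences recomputed under the alternatives kept their direction and side of the threshold, 4 were no longer called and 2 changed sign. The latter were both Camk2a, at -0.0313 with library totals and from -0.0175 to 0.3244 when each library was left out. Those no longer called were at Fos and Actb, so all moved values were at fixed genes. The pairs picked from these data as the largest differences lay far past the threshold and could hardly change side. For them the tally is no test. Pairing within 50 bp left fewer pairs to test (14972 in WT), and so fewer calls: 10462 over both ages, 8779 at 4 months, 8485 at 8 months and 10122 in SgshKO. Leaving out each library gave 16201 to 17696 calls over both ages, 13497 to 14396 at 4 months, 11397 to 15397 at 8 months, 15427 to 16683 in SgshKO and 0 to 14 for the difference between ages. The inputs gave 2 calls with a pseudocount of 5; the cause was not tested. The share of tags in paired peaks, microglia minus neurons, was -0.256 percentage points. It ranged from -0.737 to 0.143 when each library was left out, and was 1.58 within 400 bp (exact permutation p = 0.0571); the cause was not tested. Deviations of same-numbered libraries correlated at -0.02 at 4 months and -0.01 at 8 months, over 24767 pairs. Each value rests on a single difference between replicates in each cell type, so it cannot exclude that replicate numbers pair the samples. With a replicate block within each age, 17534 pairs were called over both ages, 14886 at 4 months, 14330 at 8 months, 17036 in SgshKO and 0 for the difference between ages. No other alternative moved a count of calls by over 1.5 times. For the share of tags, a replicate block of 4 pairs by age and number, added after seeing the data, gave -0.256 with an exact sign-flip permutation p = 0.625, where the smallest possible is 0.125. No paired analysis was possible for inputs because the neuronal ones have 1 library per age, nor for unpaired peaks because they were not tested. Detection of differences under 4-fold was not measured.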
